A study of Mus musculus with 24 samples.

Results

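The semaphorins, plexins and neuropilins of the mouse hippocampus are described here across the Egr1cKO mice and their 3 control genotypes. A gene was taken when its symbol was Sema3 to Sema7 followed by a letter from a to g, Plxna to Plxnd followed by a number, Nrp1 or Nrp2. The rule found 31 of the 36605 genes listed, namely 20 semaphorins, 9 plexins and 2 neuropilins, and it used no measured value. The study asked how loss of Egr1, the transcription factor encoded by an immediate early gene, alters hippocampal RNA in adult females and males. Bulk RNA-seq was done on the hippocampus of 24 mice, with 3 females and 3 males of each of 4 genotypes.

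The complete wild type, written wt (-), carried neither a floxed Egr1 allele nor Cre. The Cre control, wt (+), carried the Nestin-Cre transgene alone. The floxed control, FF (-), carried the floxed Egr1 allele without Cre. The Egr1cKO, FF (+), carried both. The Nestin promoter drives Cre in precursors of neurons and glia throughout the brain. Whether Egr1 was lost in cells of other origins, such as microglia and vessel cells, was not tested. The wt and FF mice carried mouse numbers from separate ranges, so the floxed allele and the series of mice cannot be told apart. Exact ages are not given in the sources used here.

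Semaphorins are secreted or membrane-bound guidance proteins that repel or attract growing axons and later act at synapses. Plexins are their receptors and turn off Rap and R-Ras inside the cell, and neuropilins are the co-receptors through which most class 3 semaphorins bind class A plexins. In the hippocampus the system is known for shaping the mossy fibers, the dendrites of granule and pyramidal cells, and the number of synapses. In bulk tissue, fewer cells of a type and less RNA per cell cannot be told apart.

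The total count per mouse ran from 18025168 to 34955004. Egr1 itself checked the labels: it stood between 4.86 and 10.2 in counts-per-million units (CPM) in the 6 Egr1cKO mice and between 47.7 and 149.1 CPM in the other 18. The labels name the cell type as endocrine, but the summed level of the anterior pituitary list was 0.256 to 2.41 CPM, with 4 of its 5 genes in the table and none at 0 in all mice, against 3291 to 3872 CPM for the 4 neuron markers. Both mice with the least dentate granule cell markers stood apart from the rest. The sum of the 4 dentate markers was 144.8 CPM in Egr1cKO male 3 and 163.0 CPM in wt (+) female 1, and 222.6 to 419.3 CPM in the other 22 mice. The wt (+) female 1 also had the most choroid plexus RNA, at 2069 CPM over the 9 markers, where the median mouse had 53.4 CPM. It was lowest for the CA1 (287.4 CPM), CA2 (86.97 CPM) and CA3 (100.7 CPM) lists. It was highest for the oligodendrocyte (6320 CPM) and thalamus (75.36 CPM) lists. Egr1cKO male 3 was lowest for oligodendrocyte (3320 CPM) and highest for microglia (320.2 CPM). Low in dentate markers is thus used below as a label of these mice only. Choroid plexus RNA was also high in Egr1cKO male 2 (1146 CPM), FF (-) male 3 (1049 CPM), FF (-) male 2 (821.1 CPM) and wt (+) male 3 (327.8 CPM), and at most 80.2 CPM in the other 19 mice. Fold changes of Sema3a and Plxnd1, whose 2 highest values came from the 2 mice low in dentate markers, are given with and without those mice.

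All 31 members passed the filter on low counts in every comparison. Their levels are given as CPM per exonic kilobase (RPKM, on TMM-scaled library sizes), the scale on which genes of unequal length can be set side by side. The highest level was that of Sema6b, a transmembrane class 6 semaphorin that binds class A plexins on mossy fibers, with 41.3 ± 2.98 RPKM (SD, n = 24). The next was Sema7a, the GPI-anchored class 7 semaphorin that binds Plxnc1 and integrins, with 40.9 ± 6.15 RPKM. These levels differed by less than the spread between mice, and they lay above 94.96% and 94.92% of the genes tested. Plxna1, with 19.4 ± 3.75 RPKM, and Plxna4, with 19.0 ± 3.53 RPKM, came next and also differed by less than their spread.

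The lowest members were secreted class 3 semaphorins. Sema3a, which acts through Nrp1, had 0.311 ± 0.218 RPKM, Sema3b had 0.521 ± 0.318 RPKM and Sema3f, which acts through Nrp2, had 0.705 ± 0.415 RPKM. The spread of each was more than the gap to its neighbor in the order. The highest of class 3 was Sema3e, the ligand of Plxnd1, with 8.71 ± 1.64 RPKM. In class 4 the levels ran from 2.44 RPKM for Sema4c to 11.5 RPKM for Sema4f. Class 5 held Sema5a at 9.67 RPKM and Sema5b at 3.23 RPKM, and class 6 ran from 2.90 RPKM for Sema6a to the 41.3 RPKM of Sema6b.

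Among the plexins the lowest level was 4.68 ± 0.777 RPKM for Plxnb3, a class B plexin of oligodendrocytes. Class A plexins, the partners of neuropilins, made up 56.4% ± 4.31 (SD, n = 24) of the summed plexin level. Nrp1, with 8.11 ± 1.79 RPKM, and Nrp2, with 7.33 ± 1.17 RPKM, held 52.2% and 47.8% of the neuropilin level. Nrp1 was the higher of the pair in all mice except FF (-) male 2, Egr1cKO male 3 and wt (+) male 1. Sema6b and Sema7a together led the ligands, with 24.9% and 24.5% of the summed semaphorin level. The order of the middle members depended on the length used. With the longest transcript in place of all exonic bases, Nrp1 moved from rank 12 to rank 3, while Sema6b and Sema7a stayed first and second. Nrp1 and Nrp2 then had means of 21.8 and 12.9 RPKM, so their shares depended on the length as well.

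**Figure D1:**
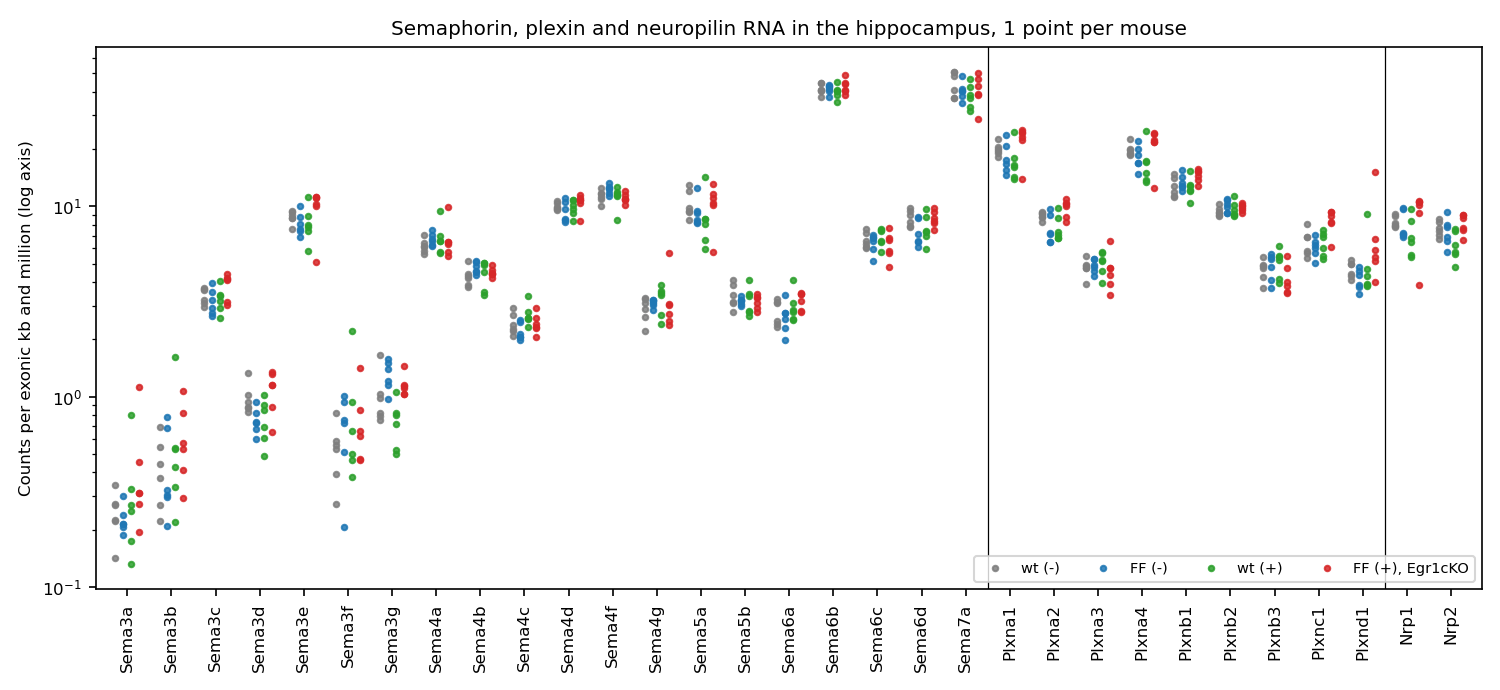
Level of each member in each of the 24 mice, in RPKM on a log axis, with semaphorins, plexins and neuropilins separated by vertical lines and genotypes by color. Sema6b and Sema7a lie near 41 and Sema3a, Sema3b and Sema3f below 1 in the mean, and single high points of Sema3a, Plxnd1 and Sema3f come from the 2 mice with few dentate markers.

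The spread over the 24 mice was unequal between members. The coefficient of variation was 7.04% for Plxnb2 and 7.21% for Sema6b, and 70.1% for Sema3a, 61.0% for Sema3b, 58.9% for Sema3f and 46.9% for Plxnd1. Sema3a is listed with 33 to 401 reads a mouse, Sema3b with 20 to 161 and Sema3f with 34 to 239, and counting error alone would give coefficients of variation of 10.04%, 13.41% and 11.01%. Sema3b had 7.73, 3.90, 3.75, 3.28 and 2.57 CPM in the 5 mice rich in choroid plexus markers and 0.997 to 5.10 CPM in the other 19, which overlapped. Plxnd1, the receptor of Sema3e in vessels and in some neurons, had 460 to 2859 reads, and its 2 highest mice were those low in dentate markers.

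No member was called differentially expressed in any of the 12 comparisons by edgeR's quasi-likelihood test, at an adjusted p of at most 0.05 and, outside the interactions and main effects, a fold change of at least 1.2. These comparisons share mice, so their results are not independent. Where groups are compared below, values are CPM, and fold changes are on the log2 scale with their standard error (SE).

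In the 6 Egr1cKO mice against the other 18, 0 of 31 members were called, where 0.00543% of all 18433 genes tested were called, that is Egr1 alone. The study called more genes than this with DESeq2 on the same split, and others with a mixed model. It listed axon guidance among the processes enriched in the genes from both. At an unadjusted p under 0.05 stood 10 members, all with higher values in Egr1cKO mice, against 15.1% of all genes. DESeq2 called 1 member, Plxnc1, and 0.182% of the 23091 genes it gave an adjusted p. Of the 31 log2 fold changes 25 were positive with a median of 0.14, where 48.2% of all genes were positive with a median of -0.01. The 10 members were the receptors Plxnc1, Plxnd1, Plxna2, Plxnb1, Plxna1 and Nrp2 and the class 3 ligands Sema3a, Sema3c, Sema3d and Sema3e.

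Plxnc1, the receptor of Sema7a, had the smallest p of the members. It is one of the genes shown in a figure of the study, as is Plxna2. Its level was 69.1, 73.9 and 77.9 CPM in Egr1cKO females and 68.1, 50.8 and 77.7 CPM in Egr1cKO males. The other genotypes had 44.9 to 67.2 CPM in wt (-), 42.1 to 58.96 CPM in FF (-) and 44.3 to 62.3 CPM in wt (+). All but 1 of the Egr1cKO mice, male 2, were thus above every control. The log2 fold change was 0.41 (SE 0.084, edgeR adjusted p = 0.128) against the 18 controls, and DESeq2 gave 0.41 with an adjusted p of 0.017. The choice of mice decides this call: without Egr1cKO male 2 the edgeR adjusted p was 0.0122, with 0.0429% of all genes called, and without Egr1cKO male 3 it was 0.042, with 4 members and 1.15% of all genes called. Male 2 had the highest dentate marker sum, 419.3 CPM, beside its 1146 CPM of choroid plexus markers, and their part in its Plxnc1 value was not tested. Over all 24 mice left out in turn the adjusted p ran from 0.0122 to 0.448.

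Plxna2, a receptor for class 3 semaphorins with neuropilins and for class 6 semaphorins without them, had 188.2, 177.2 and 178.2 CPM in Egr1cKO females and 172.3, 151.1 and 141.1 CPM in Egr1cKO males. The ranges were 142.1 to 160.3 CPM in wt (-), 111.4 to 165.3 CPM in FF (-) and 116.3 to 167.5 CPM in wt (+). The females stood above all controls and the males overlapped them. The log2 fold change against the 18 was 0.28 (SE 0.085, edgeR adjusted p = 0.201).

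Plxnd1 had 48.9, 37.6 and 43.2 CPM in Egr1cKO females and 39.3, 29.3 and 111.1 CPM in Egr1cKO males. The highest control was wt (+) female 1 with 66.3 CPM, and the other 17 controls lay between 25.2 and 38.1 CPM. The log2 fold change was 0.63 (SE 0.181, edgeR adjusted p = 0.195), and 0.33 (SE 0.090) without the 2 mice low in dentate markers. Sema3a showed the same 2 mice. It had 15.6 CPM in Egr1cKO male 3 and 11.1 CPM in wt (+) female 1, where the other 22 mice had 1.82 to 6.33 CPM, and its log2 fold change was 0.75 (SE 0.288, edgeR adjusted p = 0.240), and 0.39 (SE 0.183) without them.

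**Figure D2:**
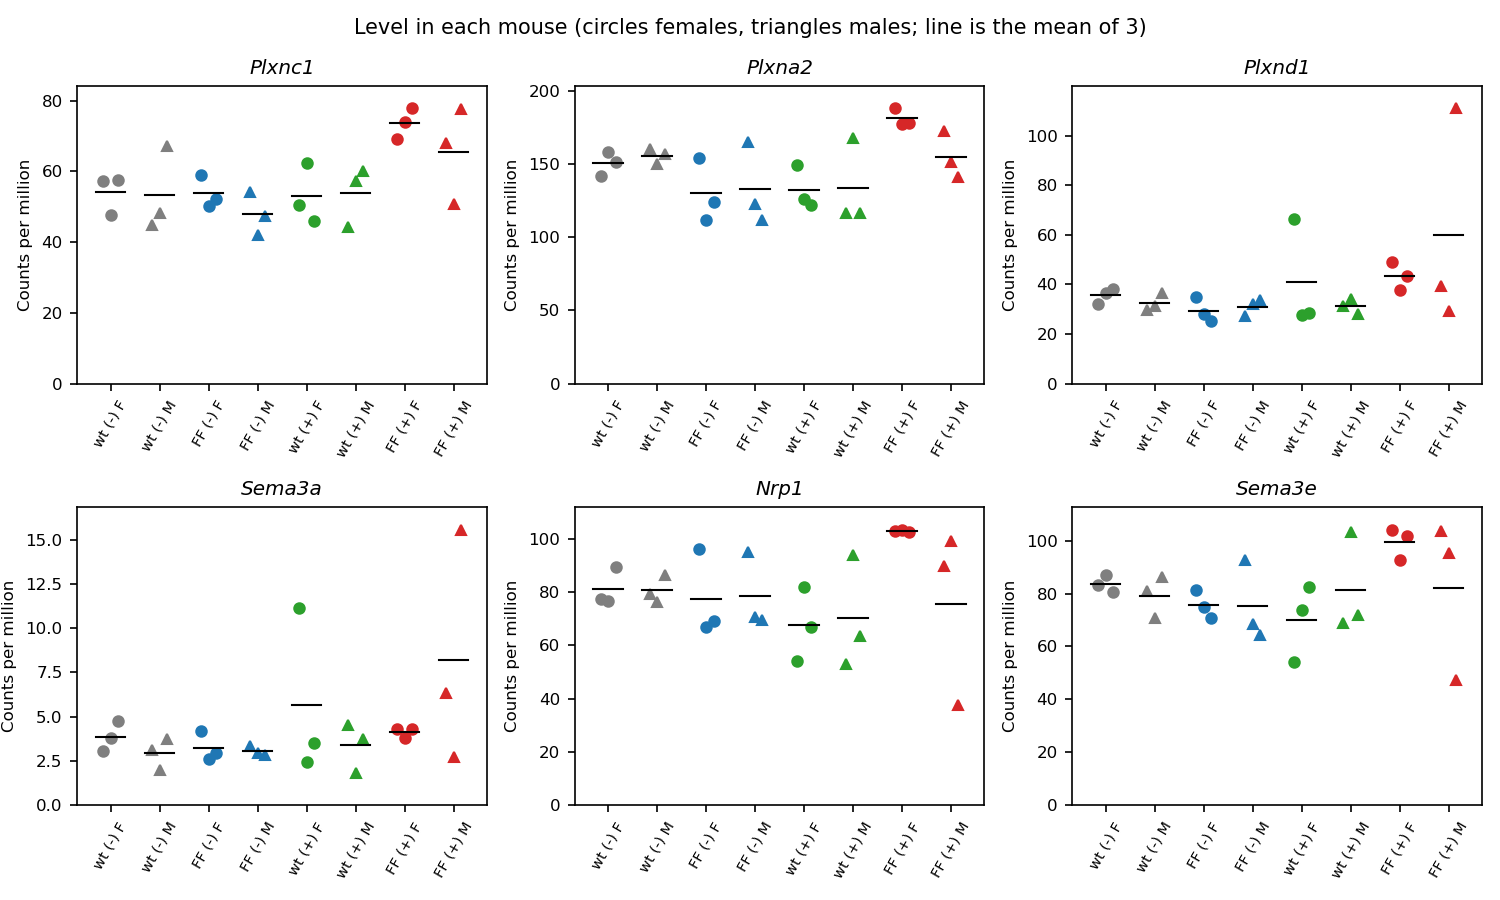
CPM of 6 members in each mouse, by genotype and sex, with circles for females, triangles for males and a line at the mean of the 3 mice of each group. The Egr1cKO females are above all other females for Plxnc1, Plxna2, Nrp1 and Sema3e, and Egr1cKO male 3 is highest for Plxnd1 and Sema3a and lowest for Nrp1 and Sema3e.

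The promoter letters of members are shown here because the protein lost in the Egr1cKO mice binds DNA. The EGR1 site was searched as GCGTGGGCG and GCGGGGGCG on both strands, from 250 bases before to 50 after each RefSeq start (GRCm38.p6). A window was at hand for 26 of the 31 members, and those of Plxna1, Plxna4, Sema3b, Sema3f and Sema6a were not analysed here. The letters were found for 5 members, or 19.2%, against 7.12% of the genes tested and 3.93% of all genes with a window. Member windows were also richer in G and C, with a median of 63.7% against 59.7% over the genes tested. The 5 were Plxna2, Sema5a, Plxnb2, Sema4g and Sema6b, where the match lay 32 bases past the start. A match is a description of letters and not a site of binding. Plxnc1, the member with the smallest p, had none in this window. The 250 bases before the start of Plxna2 and of Plxnc1, and 60-base stretches around the letters of 3 other members, read as follows, with the searched letters in capitals and each sequence on the strand of its gene.
Plxna2 (chr1:194619579-194619828, + strand): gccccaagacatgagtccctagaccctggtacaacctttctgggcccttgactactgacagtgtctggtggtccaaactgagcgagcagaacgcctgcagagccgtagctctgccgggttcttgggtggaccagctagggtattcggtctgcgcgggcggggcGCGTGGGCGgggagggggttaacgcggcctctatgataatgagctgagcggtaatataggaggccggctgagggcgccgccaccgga
Plxnc1 (chr10:94944846-94945095, - strand): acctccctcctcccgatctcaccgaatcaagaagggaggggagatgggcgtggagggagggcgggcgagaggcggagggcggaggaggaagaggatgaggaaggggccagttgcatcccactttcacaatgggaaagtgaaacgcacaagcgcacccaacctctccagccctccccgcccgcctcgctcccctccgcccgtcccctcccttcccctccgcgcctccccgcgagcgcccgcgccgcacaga
Sema5a (chr15:32244724-32244783, + strand): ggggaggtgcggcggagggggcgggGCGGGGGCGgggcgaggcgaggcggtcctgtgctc
Plxnb2 (chr15:89180789-89180848, - strand): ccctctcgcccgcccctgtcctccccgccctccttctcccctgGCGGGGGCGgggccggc
Sema4g (chr19:44989177-44989236, + strand): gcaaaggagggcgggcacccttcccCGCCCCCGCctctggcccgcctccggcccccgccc

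Against the 18 controls Plxna2, at log2 fold change 0.28, was among the 10 at an unadjusted p under 0.05, and Sema5a at 0.14, Plxnb2 at 0.03, Sema4g at 0.08 and Sema6b at 0.07 were not.

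Within the FF mice, Egr1cKO against FF (-) with sex in the fit, 0 of 31 members were called, against 0.0232% of all genes. Members at an unadjusted p under 0.05 numbered 10, of which 9 were higher, against 16.2% of all genes, and DESeq2 called 1, Plxnc1, and 0.575% of the genes it gave an adjusted p. The 3 smallest p belonged to Plxnc1 with log2 fold change 0.45 (SE 0.093, edgeR adjusted p = 0.242), Plxna2 with 0.35 (SE 0.102, adjusted p = 0.244) and Sema3d with 0.52 (SE 0.162, adjusted p = 0.253). Sema3d, a secreted ligand at low level, had 5.60 to 11.6 CPM in Egr1cKO mice and 5.16 to 8.05 CPM in FF (-) mice, and the groups overlapped. The 1 lower member was Sema4f, a synaptic class 4 semaphorin, with -0.15 (SE 0.060, adjusted p = 0.264). Without FF (-) male 1, edgeR called Plxna2 and Plxnc1 and 1.74% of all genes, and without Egr1cKO male 2 it called Plxnc1 and 0.0573% of all genes.

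At matched Nestin-Cre, Egr1cKO against wt (+), 0 members were called against 0.00585% of all genes. There were 8 members at an unadjusted p under 0.05, 7 of them higher, against 12.3% of all genes, and DESeq2 called 0. The groups also differ in the floxed allele and the series of mice, which cannot be told apart here from loss of Egr1. Sema3g, a class 3 ligand of vessel walls, had 4.66 to 6.55 CPM in Egr1cKO and 2.27 to 4.80 CPM in wt (+) mice, with log2 fold change 0.65 (SE 0.188, edgeR adjusted p = 0.354). Its mean was 5.2 CPM in Egr1cKO and 3.3 CPM in wt (+), beside 5.9 CPM in FF (-) and 4.6 CPM in wt (-). Plxnc1 had 0.38 (SE 0.111), Nrp2 had 0.38 (SE 0.112) and Plxna2 had 0.33 (SE 0.100), all at the same adjusted p of 0.354. The 1 lower member was Plxnb3 with -0.29 (SE 0.129, adjusted p = 0.393). One Cre control mouse weighed heavily: without wt (+) male 2, edgeR called Nrp2, Plxna2, Sema3d and Plxna1 and 4.58% of all genes.

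The Nestin-Cre transgene alone, wt (+) against wt (-), gave 0 called members and 0% of all genes called. At an unadjusted p under 0.05 stood 3 members, all lower, against 6.05% of all genes, and DESeq2 called 0 members. They were Nrp2 with -0.28 (SE 0.102), Plxna2 with -0.20 (SE 0.089) and Sema3d with -0.37 (SE 0.174), each at an edgeR adjusted p of 0.754. Plxnc1 had -0.01 (SE 0.109). Without wt (+) male 2, edgeR called Plxna4 at -0.38 and Plxna1 at -0.35, and 1.31% of all genes.

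The floxed allele without Cre, FF (-) against wt (-), also gave 0 called members and 0% of all genes called, with 3 members at an unadjusted p under 0.05, all lower, against 9.68% of all genes, and 0 by DESeq2. They were Sema3d with -0.39 (SE 0.139), Sema6d, a class 6 ligand of Plxna1, with -0.25 (SE 0.095) and Plxna2 with -0.22 (SE 0.091), each at an edgeR adjusted p of 0.515. Plxnc1 had -0.08 (SE 0.095). For Plxna2 and Sema3d, therefore, the wt (+) and FF (-) groups both had lower means than wt (-), which is the reference of both comparisons. The values of both comparisons with a length index as a covariate are given after the account of exonic length.

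The model with floxP, Nestin-Cre, their interaction and sex separates the combination from either part. For the interaction 0 members were called, against 0.00507% of all genes. DESeq2 called 1 of the 31, Plxna2, and 10.3% of the 3250 genes it gave an adjusted p. The 8 members at an unadjusted p under 0.05 all had positive terms, against 18.4% of all genes at that level in either direction. The terms were 0.56 (SE 0.141, edgeR adjusted p = 0.159) for Plxna2, 0.90 (SE 0.240, adjusted p = 0.159) for Sema3d and 0.46 (SE 0.153, adjusted p = 0.159) for Plxnc1, followed by Sema6d, Nrp2, Plxna1, Plxna4 and Plxnd1. Without wt (+) male 2, 6 members were called, namely Plxna2, Sema6d, Sema3d, Plxna4, Plxna1 and Plxnc1, and 7.05% of all genes.

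The floxP main effect gave 0 called members against 0.00507% of all genes, with 3 members and 5.5% of all genes at an unadjusted p under 0.05 and 0 members by DESeq2. The 3 were Sema3g with 0.50 (SE 0.135), Plxnb1 with 0.14 (SE 0.059) and Nrp2 with 0.17 (SE 0.077), at an edgeR adjusted p of 0.841 for the first and 0.89 for the others. Plxnc1 had 0.15 (SE 0.076) and Plxna2 0.06 (SE 0.071). The Nestin-Cre main effect gave 0 called members against 0.0456% of all genes, with 5 members and 4.29% of all genes at an unadjusted p under 0.05 and 0 members by DESeq2. Its smallest p belonged to Plxnc1 with 0.22 (SE 0.076), Sema3a with 0.70 (SE 0.264) and Plxnd1 with 0.43 (SE 0.166), each at an edgeR adjusted p of 0.997. Plxna2 had 0.07 (SE 0.071). Without the 2 mice low in dentate markers, the Nestin-Cre terms of Sema3a and Plxnd1 were 0.18 (SE 0.16) and 0.10 (SE 0.074).

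**Figure D3:**
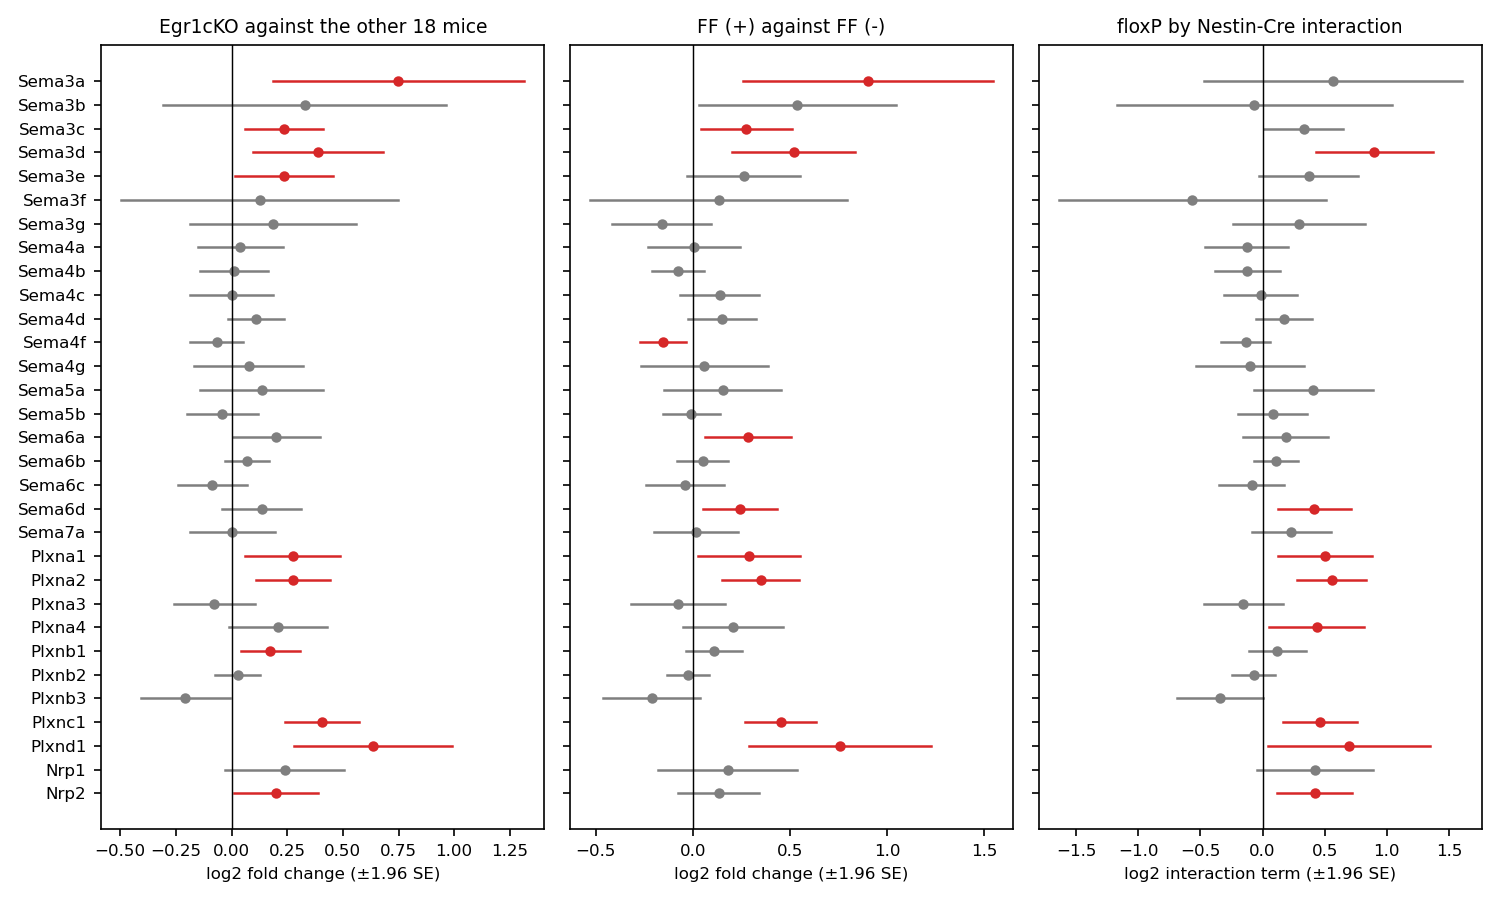
Log2 fold changes, or interaction terms, of the 31 members, with an unadjusted p under 0.05 in red. The panels show Egr1cKO against the other 18 mice, FF (+) against FF (-) and the floxP by Nestin-Cre interaction. Bars are approximate 95% intervals, computed from the SE by the normal distribution and so somewhat narrow. Plxnc1, Plxna2, Plxna1, Plxnd1 and Sema3d are red and positive in all 3 panels, which share the Egr1cKO mice, and none passed the adjusted threshold.

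The 12 females and 12 males did not differ in any member by edgeR, with 0 called against 0.0701% of all genes, 0 at an unadjusted p under 0.05 against 5.66% of all genes, and 0 by DESeq2. The smallest p belonged to Sema6c with -0.11 (SE 0.067), Sema3d with 0.20 (SE 0.143) and Plxnb2 with -0.06 (SE 0.044), at edgeR adjusted p of 0.934 and above. The log2 differences of the members, females minus males, ran from -0.28 to 0.20, and their approximate 95% intervals, by the normal distribution, reached from -0.85 to 0.68. Plxna3 and Plxnb3 lie on the X chromosome and were not among the 3 smallest p.

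In females the Egr1cKO effect, the mean of Egr1cKO minus the average of the 3 control groups, gave 0 called members against 0.182% of all genes. There were 8 members at an unadjusted p under 0.05, 7 of them higher, against 15.2% of all genes, and DESeq2 called 0. Plxnc1 had 0.46 (SE 0.126, edgeR adjusted p = 0.119), Plxna2 had 0.40 (SE 0.114, adjusted p = 0.132) and Plxnb3 had -0.41 (SE 0.135, adjusted p = 0.180). For 5 of the 31 members, Nrp1, Plxna1, Plxna2, Plxnc1 and Sema3e, the 3 Egr1cKO females were above all 9 other females, as they were for 3.14% of all genes, and for 0 members they were below all 9, against 2.64% of all genes. Nrp1, for example, had 102.8, 103.2 and 103.6 CPM in them and 54.1 to 96.2 CPM in the other females, with log2 effect 0.46 (SE 0.192, adjusted p = 0.268). The summed astrocyte list was likewise above all other females in these 3 mice, at 5422, 5426 and 5478 CPM against 3579 to 5225 CPM, and its part in the values of the 5 members was not tested. Over both sexes the Egr1cKO mice had the highest median of the 4 genotypes for the astrocyte list, 5424 CPM against 4086 to 4830 CPM, and for the microglia list, 295.7 CPM against 258.4 to 270.9 CPM. Slc1a2 alone had a median of 3061 CPM, beside 4637 CPM for the astrocyte list. Their median was also highest for endothelium (187.2 CPM against 138.9 to 170.2), oligodendrocyte precursor (266.6 against 239.5 to 243.9) and meningeal fibroblast (75.4 against 55.8 to 61.7). The same held for the striatum, neuron and anterior pituitary lists, and not for the remaining lists. Plxnb3 was at 22.7 to 26.0 CPM in Egr1cKO females and at 24.2 to 40.1 CPM in the other females, which overlapped. The summed oligodendrocyte list was 3553 to 4643 CPM in the same Egr1cKO females and 4124 to 6320 CPM in the other females, and its part in the Plxnb3 values was not tested.

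In males the Egr1cKO effect gave 0 called members against 0.00507% of all genes, with 4 members and 4.49% of all genes at an unadjusted p under 0.05 and 0 members by DESeq2. For 0 members the 3 Egr1cKO males were all above the other 9 males, against 0.339% of all genes, and for 0 members all below, against 0.425%. Sema3a had 1.40 (SE 0.370), Plxnd1 0.93 (SE 0.255) and Plxnc1 0.34 (SE 0.127), each at an edgeR adjusted p of 0.943, and Plxna2 had 0.14 (SE 0.116). Without the 2 mice low in dentate markers these became 0.53 (SE 0.296) for Sema3a, 0.12 (SE 0.127) for Plxnd1 and 0.20 (SE 0.143) for Plxnc1.

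Whether the effect differed between the sexes was tested by their interaction, with 0 members called against 0.00507% of all genes, 2 members and 6.09% of all genes at an unadjusted p under 0.05, and 0 members by DESeq2. The terms, females minus males, were -1.41 (SE 0.561, edgeR adjusted p = 0.756) for Sema3a, -0.40 (SE 0.191, adjusted p = 0.816) for Sema4a, a class 4 ligand of plexins B and D, and -0.37 (SE 0.187, adjusted p = 0.835) for Plxnb3. Without the 2 mice low in dentate markers those of Sema3a and Sema4a were -0.22 (SE 0.402) and -0.03 (SE 0.124). For Plxnc1 the term was 0.11 (SE 0.183) and for Plxna2 0.26 (SE 0.165).

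Members are long genes, and length moved with the results. The median exonic length was 7720 bases for the 31 members and 4413.5 bases for the protein-coding genes tested, and 14 members exceeded 8000 bases. In Egr1cKO against the other 18 mice, all 14 long members had positive log2 fold changes with a median of 0.22, and 8 of them stood at an unadjusted p under 0.05. Of the other protein-coding genes over 8000 bases 76.9% were positive, with a median of 0.09, and 24.7% were positive at an unadjusted p under 0.05. The 17 shorter members had 11 positive values and a median of 0.03, with 2 at an unadjusted p under 0.05, Plxnd1 and Sema3c. The other protein-coding genes of 2000 to 8000 bases had a median of -0.005, with 7.24% positive at an unadjusted p under 0.05. Those under 2000 bases had a median of -0.10 with 26.2% positive. For the interaction, 13 of the 14 long members were positive with a median of 0.42, beside 0.17 for other long genes, and 7 of the 17 shorter ones with a median of -0.07.

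**Figure D4:**
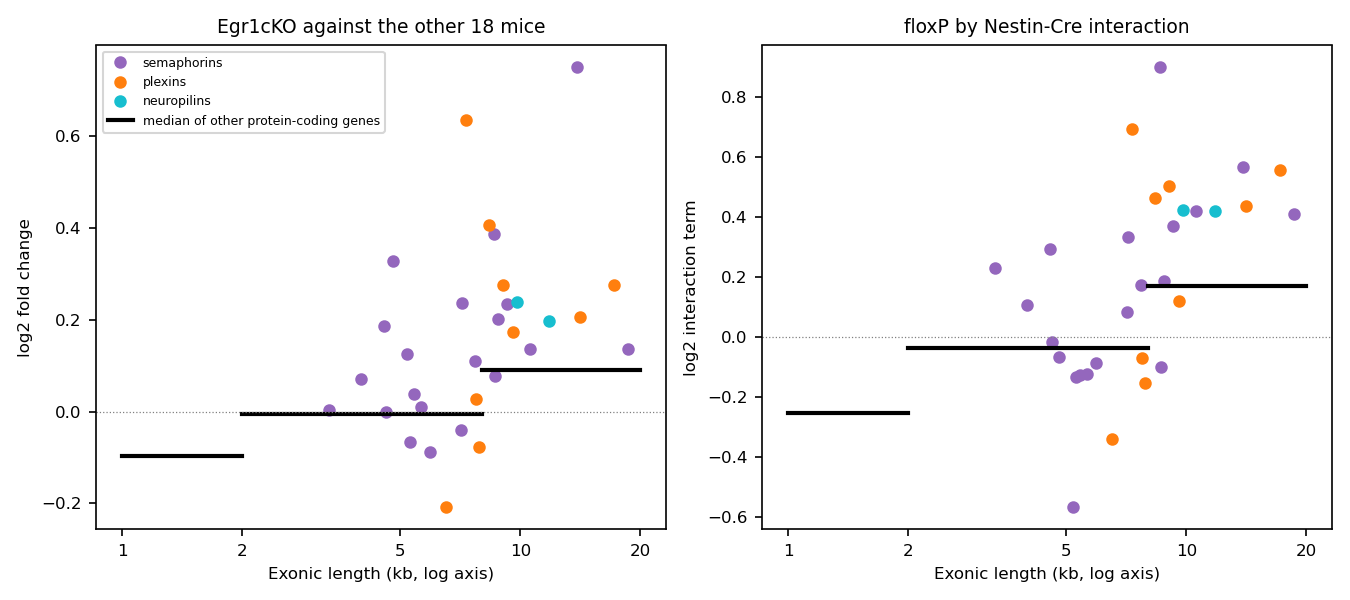
Log2 fold change of each member against its exonic length (log axis) for Egr1cKO against the other 18 mice, and the interaction term for floxP by Nestin-Cre, with black lines at the medians of other protein-coding genes under 2 kb, from 2 to 8 kb and over 8 kb. Of the 14 long members 14 lie above 0 against the 18 controls and 13 in the interaction, and the median lies above 0 for other long genes and below it for short genes in both.

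Each mouse was given a length index, the median log2 deviation of 2679 protein-coding genes over 8000 bases minus that of 1977 genes under 2000 bases, with the members left out. The index ran from -0.14 to 0.25 with a median of 0.18 in Egr1cKO mice, where male 3 was lowest. It ran from -0.04 to 0.18 in wt (-), from -0.34 to 0.14 in FF (-) and from -0.29 to 0.30 in wt (+), where male 2 was highest. The medians were 0.06 in wt (-), -0.18 in FF (-) and -0.13 in wt (+). The genotypes overlapped in the index, but the index is not separate from genotype. Over the 24 mice, 12 of the 31 members correlated with the index at an adjusted permutation p of at most 0.05, all positively, among 62 relations computed with this index and the dentate markers. The share of all genes, or of other long genes, that would pass was not computed. The count therefore cannot be read as particular to the members.

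Plxna2 had Pearson's r = 0.90 and Spearman's rho = 0.90 with the index, each with a permutation p of 1e-05, the smallest that 100000 draws can give, and r had an adjusted p of 0.000103. Sema6d had r = 0.90 and rho = 0.87 with the same p. Without the 2 mice farthest from the median of the index, r was 0.87 for both. Within the wt mice r was 0.92 for Plxna2 and 0.91 for Sema6d, and within the FF mice it was 0.90 and 0.91. Plxnc1 followed the index less closely, with r = 0.46 (permutation p = 0.0231) and rho = 0.50 (permutation p = 0.0142), and r = 0.30 within the wt mice and 0.58 within the FF mice. Plxnd1 had r = 0.14 (permutation p = 0.544) and rho = 0.44 (permutation p = 0.0326).

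With the length index as a covariate, an alternative chosen after seeing the data, the log2 fold change of Plxna2 against the 18 controls was 0.12 (SE 0.049, edgeR adjusted p = 0.570) in place of 0.28. That of Plxnc1 was 0.36 (SE 0.087, adjusted p = 0.311) in place of 0.41, and that of Plxnd1 was 0.67 (SE 0.187, adjusted p = 0.37). In the interaction, Plxna2 went from 0.56 to 0.22 (SE 0.095), Sema3d from 0.90 to 0.39 (SE 0.217) and Plxnc1 from 0.46 to 0.35 (SE 0.173). Members at an unadjusted p under 0.05 were then 5 against the 18 controls and 3 in the interaction, with 0 called in both. Of all genes, 1386 of 18433 and 702 of 19742 were at that level. Against FF (-), Plxna2 went from 0.35 to 0.14 (SE 0.075) and Sema3d from 0.52 to 0.22 (SE 0.167). For wt (+) against wt (-), 0 members in place of 3 were at that level, beside 634 of 17167 genes. There 18 of 31 values were positive in place of 13. For FF (-) against wt (-) the direction turned: the 3 members at that level were all higher, Plxnb1 at 0.23 (SE 0.064), Nrp1 at 0.13 (SE 0.059) and Nrp2 at 0.14 (SE 0.066), each at an edgeR adjusted p of 0.9999, and 21 of 31 values were positive in place of 10, with a median of 0.05 in place of -0.08. Of all genes in that comparison, 592 of 17393 were at that level. What sets the index in a mouse was not tested.

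**Figure D5:**
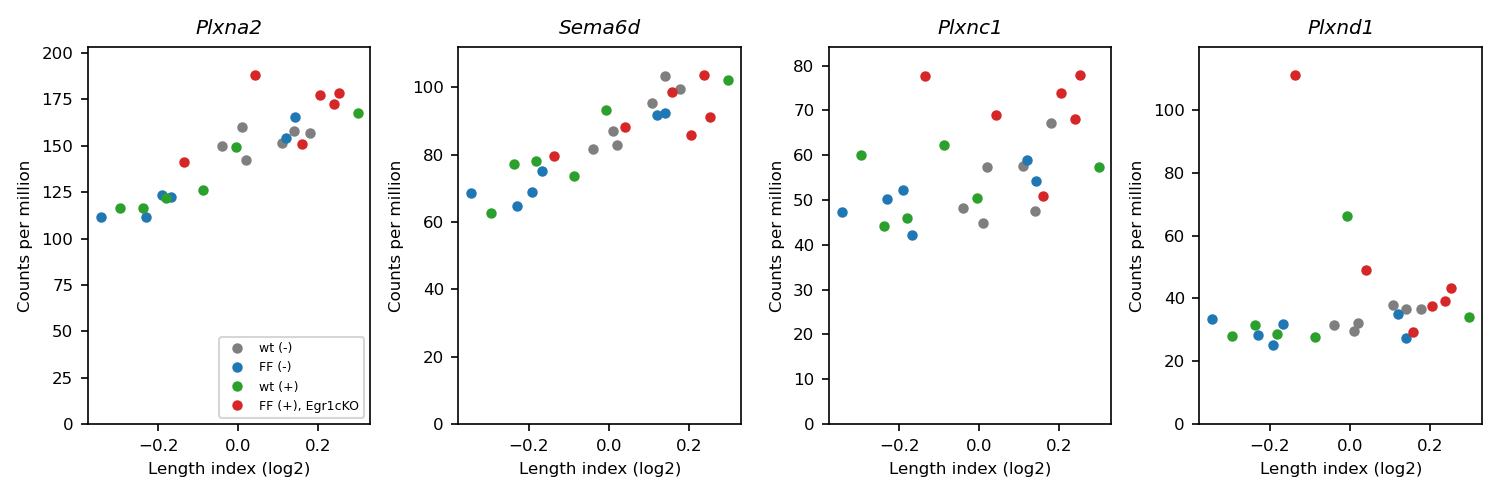
CPM of Plxna2, Sema6d, Plxnc1 and Plxnd1 in each mouse against its length index, the log2 deviation of long minus short genes, colored by genotype. Plxna2 and Sema6d follow the index over the 24 mice (r = 0.90 each), Plxnc1 follows it less closely (r = 0.46), and Plxnd1 has 2 high mice at 111.1 and 66.3.

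The 2 mice low in dentate markers had the extreme values of several members. Egr1cKO male 3 had 37.8 CPM of Nrp1, 47.4 CPM of Sema3e and 49.3 CPM of Sema4g, and the other 23 mice had 53.0 to 103.6, 54.2 to 104.2 and 19.2 to 33.6 CPM. Sema3f was highest in wt (+) female 1, with 11.5 CPM, and next in Egr1cKO male 3, with 7.34 CPM. Since these mice lay apart in the dentate list, relations with the dentate markers were computed over the other 22. There 2 of 31 members passed at an adjusted permutation p of at most 0.05, and the share of all genes that would pass was not computed. Sema5a, a class 5 semaphorin that limits synapses of granule cells, had r = 0.74 (permutation p = 0.00011, adjusted 0.000758) and rho = 0.51 (permutation p = 0.0161), and r = 0.58 without the 2 farthest mice. Sema7a had r = 0.64 (permutation p = 0.00128, adjusted 0.0061) and rho = 0.58 (permutation p = 0.00586), and r = 0.55 without the 2 farthest. Within the wt mice r was 0.83 and 0.66, and within the FF mice 0.51 and 0.57.

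Leaving out both mice, a choice made after seeing the data, edgeR called 3 members in Egr1cKO against the other mice: Sema3e with log2 fold change 0.34 (SE 0.075, adjusted p = 0.0373), Plxnc1 with 0.36 (SE 0.091, adjusted p = 0.0424) and Nrp1 with 0.37 (SE 0.093, adjusted p = 0.0431). In the same fit 1.18% of all genes were called. In females it called Plxnd1 with 0.49 (SE 0.109, adjusted p = 0.0449), in place of 0.30 (SE 0.263), and 0.562% of all genes, and in the other comparisons these mice belong to it called 0 members.

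Other genes of the pathway were not called either. A list of 53 symbols of co-receptors, effectors and other ligands, which included a second name of Ranbp9, had 49 to 51 genes tested in a comparison. Of these 0 were called in any of the 12, where 0% to 0.182% of all genes were called. Against the 18 controls 12 were higher and 4 lower at an unadjusted p under 0.05, of 50 tested, beside 15.1% of all genes. The median log2 fold change of the list was 0.05. Cdk5r1, the activator of the kinase that phosphorylates collapsin response mediators, had 0.16 (SE 0.044, edgeR adjusted p = 0.192), and Chl1, a neuropilin-bound adhesion molecule, had 0.27 (SE 0.081, adjusted p = 0.201). In the interaction 9 were positive and 6 negative at that level, of 51 tested, beside 18.4% of all genes. The smallest p of the list belonged to Tiam1, an activator of Rac, with 0.50 (SE 0.132, edgeR adjusted p = 0.159), and then to Chl1 with 0.48 (SE 0.136, adjusted p = 0.159). Among the negative terms it belonged to Sh3bp1, a Rac inactivator bound by plexins, with -0.74 (SE 0.229, adjusted p = 0.159).

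Libraries were not stranded, so reads of overlapping antisense genes cannot be told apart from those of a member. Exonic overlap on the opposite strand was found for Plxna1 (970 bases), Sema4c (334 bases), Plxnb1 (257 bases) and Plxna4 (110 bases). The largest share was for Sema4c, whose partner had a mean count of 15.8 beside 253.3.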

How the data were processed

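Hippocampal RNA from 24 mice, 3 for each of 8 groups of genotype and sex, was sequenced as non-stranded libraries. The authors deposited 1 table of whole-number counts per gene and mouse, not normalized. The submitters' processing notes name Trim Galore 3.8.2, FastQC, STAR 2.7.9 and the GRCm38 build. The methods of the study give other versions of Trim Galore and STAR. The annotation used for counting is not given in the sources used here. Total counts ran from 18025168 to 34955004, which sets the counting error of low genes.

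Counts were fitted with edgeR 4.0.16 (R 4.3.3; filterByExpr with a minimum count of 10, TMM, quasi-likelihood test) over all genes that passed, and p-values were adjusted by Benjamini-Hochberg over all of them. The threshold for a call was 0.05 on the adjusted p and, for group contrasts, also a 1.2-fold difference. DESeq2 1.42.0, other filters and normalizations, a replicate block and each mouse left out in turn were tried as alternatives, and adjusted p that DESeq2 gave as NA stayed out. Exonic lengths came from GENCODE M21 (GRCm38), and promoter windows from RefSeq (GRCm38.p6). Relations used log2(CPM + 0.5) and 100000 permutation draws, two-sided. Tables were handled with Python 3.11.15 and pandas 2.3.3, and the fits were tested on simulated data. The labels do not say more of the replicates than that they are separate mice. The edgeR p-values set a difference against the spread between those mice, moderated by a trend over all genes. The permutation draws shuffled mice without regard to genotype.

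The members and gene lists were chosen with earlier results of these data known. Named are members called, or the 3 with the smallest unadjusted p where fewer than 3 were called, the 3 highest and 3 lowest per length, the highest and lowest of each class, and Plxna2 and Plxnc1 in the main comparisons.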

Additional observations from a re-analysis of the deposited data

Results flagged for a closer look

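In each genotype of 6 mice, the highest and the lowest mouse of each member was set against its nearest neighbor by the gap as a share of the whole range on the log2 scale. Of 124 such groups 14, or 11.3%, had a gap above Dixon's 95% critical value, where chance gives about 1 in 20. Egr1cKO male 3 gave 8 of them. It was lowest for Nrp1 (gap 0.8613 of the range, 37.8 CPM beside 90.1 CPM in the next mouse), Sema3e (0.8512), Plxna4 (0.8345), Plxna1 (0.7955), Sema4d (0.6902) and Sema5a (0.6833). The same mouse was highest for Sema4a (0.7059, 53.6 CPM beside 35.2 CPM) and Sema4g (0.7049, 49.3 CPM beside 26.6 CPM). The wt (+) female 1 was highest for Plxnd1 (0.7606) and lowest for Sema4f (0.7073). These are the 2 mice with the least dentate granule cell marker RNA, and both were extreme in other marker lists as well. The part of these lists in the gaps was not tested.

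The other 4 gaps came from 4 mice. Egr1cKO male 2 was lowest for Plxnc1 (0.6831, 50.8 CPM beside 68.1 CPM), and it had 1146 CPM of choroid plexus markers, where the median mouse had 53.4 CPM, and the highest dentate marker sum, 419.3 CPM. FF (-) male 1 was highest for Sema5a (0.6591, 233.7 CPM beside 175.7 CPM), Egr1cKO female 1 was highest for Sema3g (0.651) and wt (-) male 2 was lowest for Sema3e (0.6266).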

How the results depend on the processing

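As reported, edgeR called 0 members in every comparison. DESeq2 called 1 member each in Egr1cKO against the other 18, in Egr1cKO against FF (-) and in the floxP by Nestin-Cre interaction. With no filter on low counts edgeR called 11 members in the interaction, 7 each in Egr1cKO against FF (-), in Egr1cKO against wt (+) and in females, 3 each in males and for Nestin-Cre, and 2 in the sex by Egr1cKO interaction. The genes called in all were then 1173 in the interaction, 808 against FF (-), 529 against wt (+), 879 in females, 166 in males, 191 for Nestin-Cre and 146 in the sex by Egr1cKO interaction, beside 1, 4, 1, 36, 1, 9 and 1 as reported. The prior degrees of freedom give the weight of the trend over all genes in the spread of each gene. For the floxP by Nestin-Cre interaction they were infinite without the filter and 7.76 as reported. Against the other 18 mice they were 13.2 and 7.17, with 0 members called in both fits. For wt (+) against wt (-) they were infinite and 7.1, also with 0 members called. Without the 2 mice lowest in dentate markers, chosen after seeing the data, 3 members were called against the other mice and 1 in females. With each mouse left out in turn, the members called ran from 0 to 4 against the other 18, from 0 to 6 in the interaction, from 0 to 2 against FF (-), from 0 to 4 against wt (+) and from 0 to 2 for wt (+) against wt (-), and stayed at 0 in the other comparisons. The cause of these differences was not tested.

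Of 1157 alternatives of the 42 named values 10 turned the sign, all for Plxnc1 where its value was near 0. For wt (+) against wt (-) it was 0.0023 without the 2 mice lowest in dentate markers, 0.061 with the length index as a covariate, also added after seeing the data, and from -0.068 to 0.073 with each mouse left out, 6 of them turned. For FF (-) against wt (-) it was 0.043 with the index and from -0.13 to 0.012 with each mouse left out, the 1 turned value being that without wt (-) male 3. The replicate block called 0 members in every comparison. Replicate numbers did not pair the mice (mean r = -0.003 over 84 pairs of the same number and 0.0016 over 168 others). With the longest transcript, 4 of the 6 highest and lowest members by level were kept. Low counts limit Sema3a, Sema3b, Sema3f and Sema3g most.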
